A study of Ulmus pumila with 3 samples.

Results

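The miR165 and miR166 families are among the most abundant plant microRNAs (miRNAs, short RNAs that guide the silencing of matching transcripts). They are described here in roots of Siberian elm (Ulmus pumila). Members were all names whose family number is exactly miR165 or miR166, which gave 18 names of miR166 and 2 of miR165, 20 of the 309 names counted in the study. Wild-type seedlings, 30 days old, were grown without added salt (control), with 50 mM NaCl for 6 h or with 200 mM NaCl for 24 h, and root small RNA was sequenced in 1 library per condition. The labels do not say how many plants a library holds. There are no replicates, so no difference was tested between conditions and no p-value is given, and 95% intervals cover counting error within the libraries only. The salt libraries differ in both dose and duration, whose parts cannot be told apart.

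Members of both families are known to direct cleavage of the transcripts of class III homeodomain leucine zipper (HD-ZIP III) transcription factors, such as PHABULOSA, PHAVOLUTA, REVOLUTA and the CORONA group of Arabidopsis. In Arabidopsis roots, miR165 and miR166 made in the endodermis move inward, and the gradient of HD-ZIP III protein that results patterns the xylem. The families have nearly the same sequence and share their targets. HD-ZIP III transcripts were not measured in these libraries.

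The sequences below are shown because the members differ by a few bases or by a shift, and these differences bear on which reads were counted under which name. Capitals mark the seed, bases 2 to 8 from the 5′ end. The first 4 names filled most of the family, miR166e stood next, miR165b and miR166f carry 1 changed base each, miR166l, miR166m and miR166o differ near the 5′ end, and miR166g, miR166p and miR166q come from the opposite strand of the duplex.
miR166a: uCUCGGACcaggcuucauuc
miR166b: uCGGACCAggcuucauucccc
miR166c: uCGGACCAggcuucauuccc
miR166d: gGACCAGGcuucauucccc
miR166e: uCGGACCAggcuucauucccu
miR165b: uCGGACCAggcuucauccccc
miR166f: uCGGACCAggcuucauuccuc
miR166l: uCCGGACCaggcuucauuccc
miR166m: uUGGACCAggcuucauucccc
miR166o: uCGAACCAggcuucauucccc
miR166g: gGAAUGUUgucuggcucgagg
miR166p: gGAAUGUUgucuggcucgggg
miR166q: gGAAUGUUggcuggcucgagg

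The members were 19 to 21 nt long, 13 of them 21 nt, and 15 of the 20 began with U. Positions are counted from 1 at the 5′ end of miR166b, which is the form known in many plants as the mature miR166. Of the 20 names, 17 lay on the same strand as miR166b. miR166a began 2 bases before miR166b and ended at its base 18, miR166c ended at base 20, and miR166d ran from base 3 to base 21, all without a mismatch. miR166e differed by C21U, at the last base, miR166f by C20U, miR166k by C19U and the miR165 names by U17C. Changes at both of the last bases set apart miR166i (C20U, C21A) and miR166j (C20U, C21U), miR166h ended at base 19, and miR166r carried U13C beside C20U and C21U. miR166l had an added U before base 1 and U1C, which lies in its own seed. The differences of miR166m (C2U) and miR166o (G4A) fell in the seed too. A single seed, CGGACCA, was shared by 11 members, 3 shared GAAUGUU, and the other 6 each had a seed of their own, so the members held 8 seeds. No name of another family in the tables carried any of these seeds, and none overlapped a member by 16 nt on either strand with up to 2 mismatches.

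miR166g, miR166p and miR166q carry the sequence known as the 5′ arm of miR166 hairpins, the passenger or star strand, which is usually discarded when the duplex is loaded into ARGONAUTE. Set against miR166b with an overhang of 2 bases, miR166g had 14 Watson-Crick pairs and 2 G-U pairs among 19 facing bases. miR166p differs from miR166g by A19G and miR166q by U10G, counted from the 5′ end of miR166g. The hairpin precursors were not analysed here.

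The libraries held 509280 counts in control, 449522 at 50 mM and 545587 at 200 mM, summed over 293, 283 and 281 listed names. Levels are given as RPM, counts per 1000000 of these sums. The names miR166a to miR166d had near-equal counts in every library, miR166h, miR166i and miR166j had identical counts, and so did miR165a and miR165b. Overlapping names with counts this alike (within 5% or 3 reads in each library) were taken to hold the same reads. Joining them into groups left 14 groups of the 20 names, 11 of them a name alone. Each group is represented below by its most counted name, so miR166a stands for miR166a to miR166d.

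Levels spanned 4 orders of magnitude. miR166a had 36464 counts in control, 28841 at 50 mM and 29082 at 200 mM, which is 71599 RPM (70866 to 72338), 64159 RPM (63421 to 64904) and 53304 RPM (52693 to 53920). It ranked 3 among all names of each library. By RPM the control value was highest and the 200 mM value lowest, with intervals that did not overlap. The order of the salt libraries did not hold under some other scalings, given below. miR166b, miR166c and miR166d followed at ranks 4, 5 and 6 in every library, with 35530, 35370 and 35087 counts in control. Their ratios between libraries lay close to those of miR166a and are no separate evidence.

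miR166e, with its different last base, had 9035 counts in control, 4982 at 50 mM and 5309 at 200 mM. These are 17741 RPM (17377 to 18110), 11083 RPM (10777 to 11395) and 9731 RPM (9471 to 9996). It ranked 12 in control, 15 at 50 mM and 17 at 200 mM. There were 4.04 reads of miR166a for each read of miR166e in control, 5.79 at 50 mM and 5.48 at 200 mM. Whether reads of miR166e were also counted under miR166a to miR166d is not stated in the sources.

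A tier of names followed between 958.6 and 1453 RPM, except miR166g at 832 RPM in the 200 mM library. miR166f had 740 counts in control, 544 at 50 mM and 581 at 200 mM, and the star-strand name miR166g had 704, 525 and 454 in the same order. miR166h, with miR166i and miR166j, had 646 in control, 464 at 50 mM and 523 at 200 mM. In the control library the intervals of miR166f (1350 to 1562 RPM) and miR166g (1282 to 1488 RPM) overlapped, and so did those of miR166g and miR166h (1173 to 1370 RPM). At 200 mM the interval of miR166g (757 to 912 RPM) lay below that of miR166f (980.1 to 1155 RPM).

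Lower still, miR166k had 238 counts in control, 132 at 50 mM and 178 at 200 mM. The miR165 names, which in Arabidopsis come from genes separate from those of miR166, had 179, 134 and 147 counts in that order of libraries. miR166l had 162 in control, 101 at 50 mM and 124 at 200 mM. Read against miR166a, there were 204 reads for each read of miR165a in control, 215 at 50 mM and 198 at 200 mM, so that miR165 was the minor family in each library.

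The remaining names were rare. miR166m had 65 counts in control, 59 at 50 mM and 55 at 200 mM. miR166o had 37, 31 and 32, and miR166n, which starts at base 2 of miR166b, had 41, 28 and 23. miR166n had few counts although miR166d, which lies within it, was among the most counted names. miR166p had 22 counts in control, 7 at 50 mM and 4 at 200 mM. miR166r had 2, 3 and 4 counts, and miR166q had 2 in control and 3 at 50 mM and was not listed at 200 mM. These 2 names stayed under the minimum of 20 counts and entered no comparison of RPM between libraries, only the ratios to miR166a, which had no minimum. The order among miR166m, miR166n and miR166o in the control library rests on overlapping intervals. These were 98.5 to 163 RPM for miR166m, 57.8 to 109 RPM for miR166n and 51.2 to 100.1 RPM for miR166o.

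**Figure D1:**
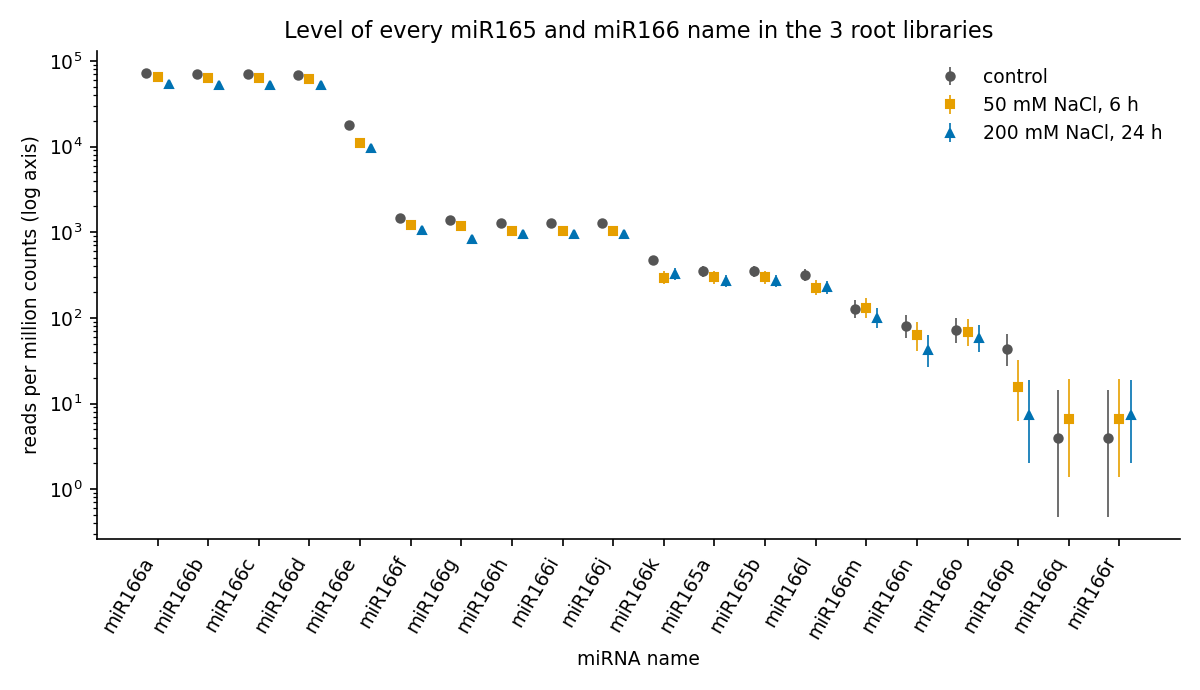
Level of each of the 20 names in RPM (log axis) in the control, 50 mM and 200 mM libraries; points are single libraries and bars exact Poisson 95% intervals. miR166a to miR166d form a plateau between 51920 and 71599 RPM, miR166e stands below it, and the last names rest on 4 or fewer counts in a library.

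With groups counted once, the joined counts of the control library were 15.9% miR165 and miR166 (15.75% to 16.005%, exact binomial). In the 50 mM library the share was 12.8% (12.7% to 12.9%), and in the 200 mM library it was 10.1% (9.97% to 10.2%). Within the family, the miR166a group held 75.4% in control (75.1% to 75.8%). It held 80.4% at 50 mM (80.03% to 80.8%) and 79.6% in the 200 mM library (79.2% to 80.1%). miR166e held 18.7% in control (18.3% to 19.04%). Its share was 13.9% at 50 mM (13.5% to 14.3%) and 14.5% in the 200 mM library (14.2% to 14.9%). The other 12 groups together held 5.87%, 5.66% and 5.82% in the same order, with intervals that overlapped. The difference in the make-up of the family between salt and control libraries lay mostly between miR166e and the leading group.

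The library from 50 mM NaCl for 6 h held less miR166 per count than the control library, and the ratio of miR166e was lower than that of miR166a. miR166a was at 64159 RPM at 50 mM, against 71599 RPM in control, a ratio of 0.896 (0.882 to 0.910). miR166e was at 11083 RPM at 50 mM, against 17741 RPM in control, a ratio of 0.625 (0.603 to 0.647). miR166k, with 132 counts at 50 mM against 238 in control, had nearly the same ratio, 0.628 (0.504 to 0.781). The star-strand name miR166g had 0.845 (0.753 to 0.947). For the miR165 names the ratio was 0.848 (0.673 to 1.07) and for miR166m 1.03 (0.710 to 1.49), both with 1 inside the interval.

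Names were called when the ratio was 2 or more in either direction and its interval excluded 1. By this rule of size, 1 of the 18 members compared was lower at 50 mM than in control and 0 were higher. Among all 162 names compared, 3.09% were lower and 1.85% higher. The 1 lower member was miR166p, with 7 counts at 50 mM against 22 in control and a ratio of 0.360 (0.130 to 0.874). With no demand on size, the interval lay below 1 for 13 of 18 members, against 27.8% of all names, and above 1 for 0 members, against 23.5% of all names. Near-equal names count several times in this, and the abundant members have narrow intervals. The median log2 ratio of the members was −0.25 and that of all names compared −0.08. The direction of the summed family held with each other scaling tried (TMM and median of ratios, which follow the typical name and not the sum, and totals without miR159a): its joined ratio was 0.807 (0.794 to 0.819), and it lay between 0.807 and 0.883 over 8 ways of counting and scaling.

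The library from 200 mM NaCl for 24 h also held less miR166 per count than the control library, and the ratio of its leading name lay close to the median of all names. miR166a was at 53304 RPM at 200 mM, against 71599 RPM in control, a ratio of 0.744 (0.733 to 0.756). Its log2 ratio, −0.43, differed by −0.02 from the median of all names compared, which was −0.40. miR166e was at 9731 RPM at 200 mM, against 17741 RPM in control, a ratio of 0.549 (0.530 to 0.567), and lay −0.46 from that median. The star-strand name miR166g, with 454 counts at 200 mM against 704 in control, had a ratio of 0.602 (0.534 to 0.678) and lay −0.33 from it. The miR165 names had a ratio of 0.767 (0.612 to 0.959) and lay 0.02 from it. The median of all names includes the members, and that of names other than members was −0.35.

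At 200 mM, 1 of 18 members compared was lower than in control by the rule of size and 0 were higher, against 16.7% lower and 3.57% higher among all 168 names compared. It was again miR166p, with 4 counts at 200 mM against 22 in control and a ratio of 0.170 (0.0425 to 0.4997). Both comparisons with control use the same control library, so the 22 counts enter both. Only through that library did miR166p reach the minimum of 20 counts, so neither call is support for a difference. With at least 50 counts in 1 library, 0 members were lower at 50 mM and 0 at 200 mM. With near-equal names joined, 3 of 12 groups were lower, against 19.5% of 118 groups of all names: miR166p at 0.153 (0.0382 to 0.449), miR166n at 0.471 (0.270 to 0.803) and miR166e at 0.493 (0.477 to 0.510). Joining with totals left unchanged kept miR166p as the 1 lower group of 12, against 17 of 118 groups of all names. The interval lay below 1 for 16 of 18 members, against 54.2% of all names, and above 1 for 0, against 17.3%. Scaled by TMM or median of ratios, it lay below 1 for 7 of 18 members, against 34.5% (TMM) and 31.0% (median of ratios) of all names. The joined family had a ratio of 0.634 (0.624 to 0.644), which was the lowest of 8 ways of counting and scaling, and median-of-ratios factors gave the highest, 0.907, still below 1. The median log2 ratio of all names moved up by 0.34 with TMM factors, 0.36 with median-of-ratios factors and 0.15 with totals without miR159a. Beside the median of all names, which includes the members, the median of the members differed by −0.17 at 50 mM and by −0.01 at 200 mM. For names other than members the median log2 ratio was −0.02 at 50 mM and −0.35 at 200 mM. The median of the members was −0.25 at 50 mM and −0.41 at 200 mM.

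**Figure D2:**
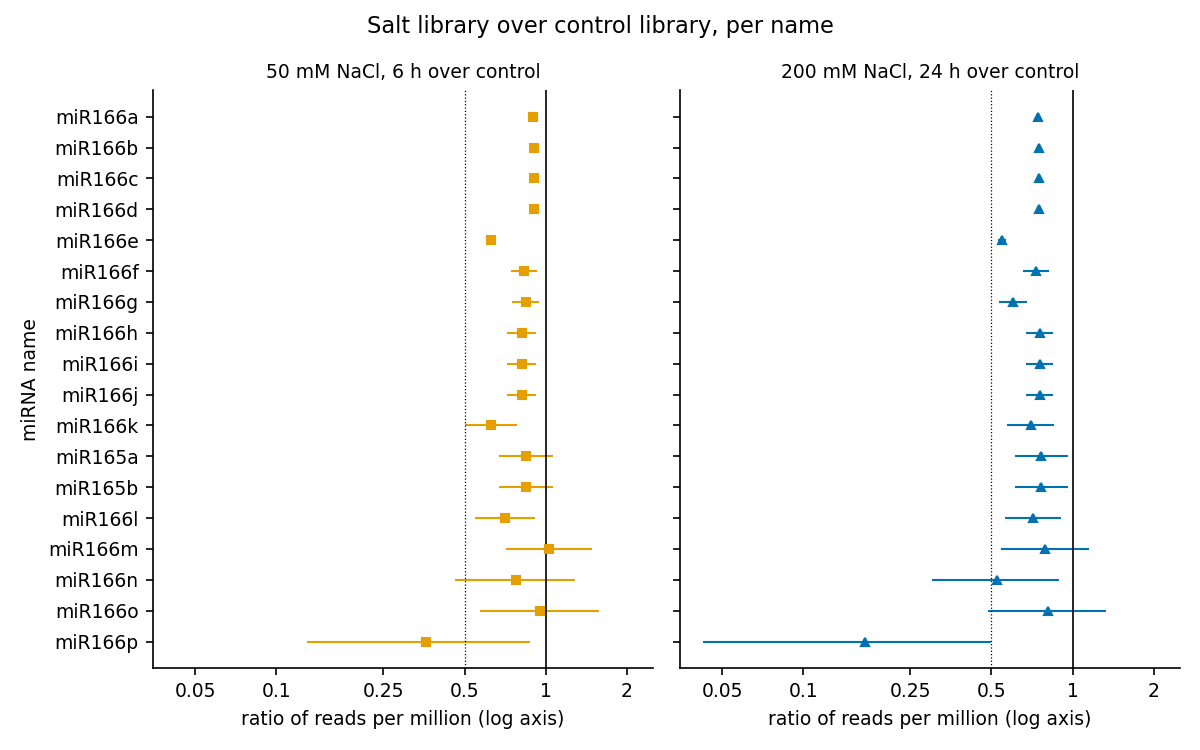
Ratio of RPM of each salt library over the control library (log axis) for the 18 names compared; bars are exact 95% intervals, the solid line marks a ratio of 1 and the dotted line 0.5. All but miR166p lie between 0.625 and 1.03 at 50 mM and between 0.524 and 0.807 at 200 mM, and miR166p lies at 0.360 and 0.170 with wide intervals.

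Ratios within the family do not depend on how libraries are scaled to each other, so the members were also set against miR166a. At 50 mM, miR166e had 17.3 reads per 100 reads of miR166a, against 24.8 in control, a relative ratio of 0.697 (conditional exact 95% interval 0.671 to 0.724). At 200 mM it had 18.3 per 100, against 24.8 in control, a relative ratio of 0.737 (0.710 to 0.765). Both salt libraries thus held less miR166e per read of miR166a than the control library, and they share that control. Between the salt libraries, 200 mM over 50 mM, the relative ratio was 1.06 (1.01 to 1.10).

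The star strand of miR166 stood lower relative to miR166a at 200 mM than in control. miR166g had 1.56 reads per 100 reads of miR166a at 200 mM, against 1.93 in control, a relative ratio of 0.809 (0.716 to 0.912). At 50 mM it had 1.82 per 100, against 1.93 in control, a relative ratio of 0.943 (0.840 to 1.06, which includes 1). The difference between the salt libraries was itself below 1, at 0.858 for 200 mM over 50 mM (0.754 to 0.975). With miR166p and miR166q added, the star strand had relative ratios of 0.929 (0.829 to 1.04) at 50 mM and 0.789 (0.6995 to 0.889) at 200 mM. miR166p alone had 0.402 (0.145 to 0.975) at 50 mM and 0.228 (0.0571 to 0.671) at 200 mM, on 7 and 4 counts. Beside miR166e, also on the guide strand, miR166g did not stand lower at 200 mM. Their ratios of RPM to control were 0.602 (0.534 to 0.678) for miR166g and 0.549 (0.530 to 0.567) for miR166e.

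With no count minimum, of the 13 groups other than miR166a at 50 mM, the relative interval lay below 1 for miR166e, miR166k and miR166p, above 1 for 0 groups, and included 1 for the other 10. Of the 12 listed at 200 mM it lay below 1 for miR166e, miR166g and miR166p, above 1 for 0, and included 1 for 9. Relative ratios to miR166a were not computed for other families, so no share over all names stands beside these counts. miR166k had a relative ratio of 0.701 (0.562 to 0.872) at 50 mM but 0.938 (0.767 to 1.14) at 200 mM, and 1.34 (1.06 to 1.69) for 200 mM over 50 mM. miR166f, which differs from miR166b by 1 base next to the last, had 0.929 (0.830 to 1.04) at 50 mM and 0.984 (0.881 to 1.10) at 200 mM. miR165a had 0.946 (0.750 to 1.19) at 50 mM and 1.03 (0.822 to 1.29) at 200 mM. An interval that includes 1 does not show that these names kept pace with miR166a.

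Taking all groups other than the leading one together, their relative ratio was 0.747 (0.722 to 0.772) at 50 mM and 0.785 (0.760 to 0.811) at 200 mM, each over control. miR166e supplied most of their counts, 9035 of 11873 in control. Without it, a choice made after its values were seen, the relative ratios were 0.905 (0.853 to 0.960) at 50 mM and 0.939 (0.885 to 0.996) at 200 mM.

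**Figure D3:**
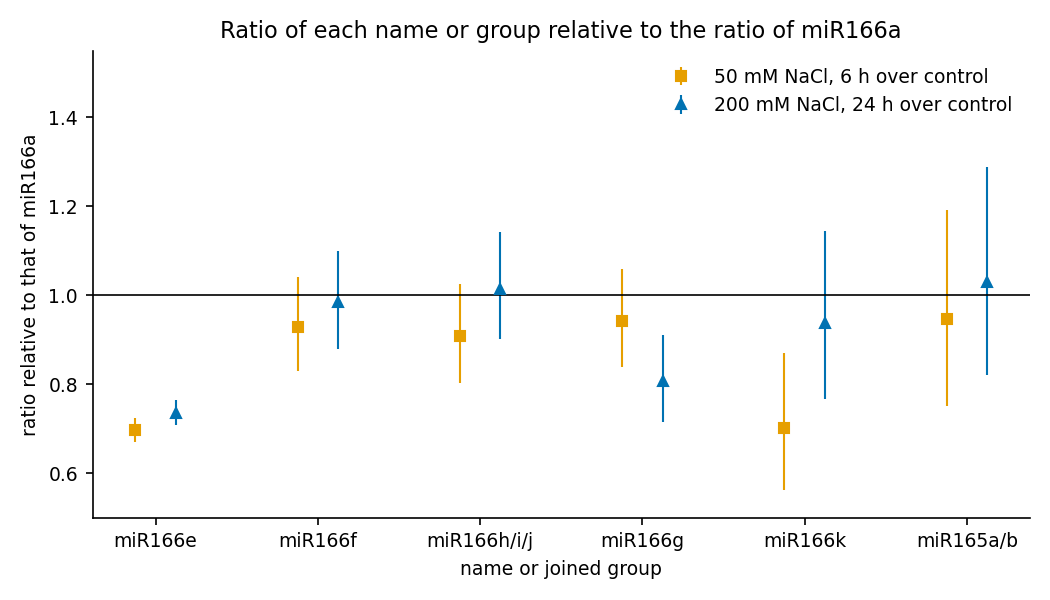
Ratio of each salt library over control for 6 names or joined groups, divided by the ratio of miR166a; bars are conditional exact 95% intervals and the line at 1 marks the ratio of miR166a. miR166e lies at 0.697 at 50 mM and 0.737 at 200 mM, miR166g lies below 1 at 200 mM, and miR166k lies below 1 at 50 mM.

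Between the salt libraries, 0 of 17 members compared were higher at 200 mM and 0 lower by the rule of size, against 6.29% higher and 18.9% lower among all names compared. The interval lay below 1 for 7 of 17, against 44.0% of all names, and above 1 for 0, against 24.5%. With TMM factors it lay below 1 for 1 member and above for 2, against 29.6% and 34.0% of all names. With median-of-ratios factors it lay below 1 for 1 and above for 9, against 28.3% and 39.0%. miR166a was at 53304 RPM at 200 mM, against 64159 RPM at 50 mM, a ratio of 0.831 (0.817 to 0.844), which turned to 1.01 under TMM scaling and 1.03 under median-of-ratios scaling. The direction of the summed family, with a joined ratio of 0.786 (0.773 to 0.799), turned likewise, to 1.02 and 1.04. These values use totals or factors of unjoined names, for which the ratio without such factors was 0.839. miR166g, at 832 RPM at 200 mM against 1168 RPM at 50 mM, had a ratio of 0.712 (0.627 to 0.809).

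Over the 3 libraries, the names of other families with the pattern most like that of miR166a were miR167a, new-16 and miR156c. Likeness was the distance between the pairs of log2 ratios to control, among 82 names with at least 100 counts in every library. miR167a, of a family that targets auxin response factors, had 1770 counts in control, 1444 at 50 mM and 1341 at 200 mM, at a distance of 0.09. new-16, a miRNA that the authors named as new, had 174, 145 and 132 counts in the same order, and miR156c, of a family that targets SPL factors, had 216, 164 and 162. miR165a lay at 0.09 too, with 1 of the 82 names nearer than it, while miR166e lay at 0.68, with 52 of them nearer. The distances carry no intervals. With 132 to 216 counts per library for new-16, miR156c and miR165a, the order among the nearest names is not resolved.

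Other miRNA families known to act in meristems and organ patterning, alongside HD-ZIP III factors, were miR160, miR164, miR171, miR319, miR394 and miR396, with no name listed for miR390. The list was chosen with earlier results of these data known, so its shares are a description only. Of their 41 names compared, 0 were higher and 0 lower at 50 mM than in control, against 1.85% and 3.09% of all names, with a median log2 ratio of −0.01, against −0.08. At 200 mM, 18 of 41 were lower than in control and 0 higher, with a median log2 ratio of −0.79, against 16.7% lower among all names compared and a median of −0.40. Of the 18, 5 are names of miR160, which targets auxin response factors, 7 of miR164, which targets NAC factors, and 6 of miR171, which targets GRAS factors. The name miR171g recurs among the 6, under different sequences that were each counted. Many of these names share reads: counted once, 8 of 22 groups were lower, against 19.5% of the groups of all names. Scaled by TMM, 14 of the 41 names were lower, against 11.9% of all names, and scaled by median of ratios 9 were, against 8.93%. miR319, miR394 and miR396 had no name lower by the rule. Among the 7 lower names of miR164, miR164d to miR164h reached the minimum of 20 counts only in control. That is the library where they were high, so their calls are no support for a difference.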

How the data were processed

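Small RNA of roots was counted in 3 libraries, 1 per condition, grouped by the description of each sample. Per the labels' protocols, Trizol was used for extraction and an NEBNext small RNA kit for the Illumina libraries. The aligner, reference, trimming and mismatches allowed are not given in the sources used. The read counts deposited by the authors are whole numbers per miRNA name. A name listed with different sequences was kept as separate entries, each counted as a name. The TPM values deposited by the authors equal the count per 1000000 of the table's sum, within 4e-05, uncorrected for length, and are written as RPM. The smallest listed count is 1, and an unlisted name was taken as 0. One read is worth 1.96 RPM in control, 2.22 at 50 mM and 1.83 at 200 mM. The depth of sequencing itself is not given.

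Ratios of RPM have exact conditional binomial (Clopper-Pearson) 95% intervals, levels exact Poisson ones and relative ratios conditional exact ones (SciPy 1.17.1, Python 3.11.15). Reads after amplification are not independent molecules. A comparison used names listed in both libraries and reaching 20 counts in either; relative ratios had no minimum. Names were joined when 16 nt or more overlapped, on the same or opposite strand with up to 2 mismatches, and their counts lay within 5% or 3 reads in all 3 libraries. A joined group has the counts of its most counted name, and its family interval is as wide as that name's. TMM factors came from edgeR 4.0.16, used for scaling only. The named miRNAs are all members and the 3 names nearest to miR166a in pattern. The members and lists were chosen with earlier results of these data known. No reference genome was used.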

Additional observations from a re-analysis of the deposited data

How the results depend on the processing

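No paired analysis was possible because each condition has 1 library. All ratios are over control unless stated. Family ratio at 50 mM (0.807 with near-equal names joined): 0.875 with TMM factors, 0.876 with median-of-ratios factors, 0.835 with totals without miR159a, 0.883 as the plain sum over names, 0.840 with totals unchanged by joining, 0.883 with only identical counts joined and 0.854 without miR166e. At 200 mM (0.634): 0.890, 0.907, 0.729, 0.738, 0.705, 0.734 and 0.666 in the same order. For 200 mM over 50 mM (0.786) the direction turned under TMM scaling (1.02) and median-of-ratios scaling (1.04), and the other values were 0.873, 0.836, 0.839 and 0.831. The TMM and median-of-ratios values used totals or factors of unjoined names. Their like reference is the ratio with totals unchanged, 0.840 at 50 mM, 0.705 at 200 mM and 0.839 for 200 mM over 50 mM. All groups other than the leading one had relative ratios of 0.982, 0.988 and 1.01 (200 mM over 50 mM) with only identical counts joined, where miR166b to miR166d enter as separate names. Without miR166e they had 0.905 and 0.939.

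At a 1.5-fold threshold, 3 of 18 members were lower at 50 mM, against 12 of 162 among all names. With at least 50 counts in 1 library, 0 of 15 members were lower there, against 2 of 124. At 200 mM, 4 of 18 members were lower at 1.5-fold, against 46 of 168 among all names. With at least 50 counts, 0 of 15 members were lower at 200 mM, against 13 of 125. Joining near-equal names gave 3 of 12 groups lower at 200 mM, against 23 of 118. Among all names at 50 mM, 8 were higher with no count minimum and 14 at 1.5-fold; 12 were lower at 1.5-fold and 2 with at least 50 counts. At 200 mM, 10 were higher with TMM or median-of-ratios factors and 12 at 1.5-fold; 15 were lower with median-of-ratios factors, 17 with joining and totals unchanged, 13 with at least 50 counts and 46 at 1.5-fold. Between the salt libraries, 6 were higher with at least 50 counts; 19 were lower with median-of-ratios factors and 46 with no count minimum. Apart from the joining with totals unchanged, whose construction leaves fewer names, and the count minima and fold thresholds, the cause was not tested. The lowest members rest on few counts: a name at 4 counts, such as miR166p at 200 mM, has an interval of 1.998 to 18.8 RPM.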
